A study of Mus musculus with 18 samples.

Results

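Genes that move or make organic osmolytes, a transcription factor that turns them on and a urea transporter gene were followed through the kidneys of 18 mice. They are Slc5a3, Slc6a12, Slc6a6, Akr1b3, Nfat5 and Slc14a2, chosen by name with earlier results of these data known. Called the osmolyte genes below, they are 6 of the 55385 genes in the tables. All 6 were among the 17575 genes that passed the filter on low counts. PolyA RNA of whole kidney was sequenced in 3 groups of 6 mice aged 17.1 to 18.0 weeks, each with 3 males and 3 females, and no treatment is given. The wild-type strain was C57BL/6J. Mice named Dp16 model Down syndrome and carry an additional copy of a stretch of chromosome 16, which holds Slc5a3 and none of the other 5 genes. Dp16 2xIFNRs mice carry that same additional copy, with the dosage of the interferon receptor genes on it set back to normal. The labels name each kidney by a sample number, taken here as 1 animal, and do not state litters, so p-values describe the spread between these samples. A further number in the descriptions, whose meaning is not given, recurs across groups: 5 such numbers cover 11 animals, each number within 1 sex and no more than once in a group.

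The inner kidney concentrates urine by building up salt and urea around its tubules. Cells there balance the outside salt with small organic solutes, the osmolytes, which do not disturb proteins. Slc5a3 encodes the sodium-coupled carrier of myo-inositol, Slc6a12 that of betaine and Slc6a6 that of taurine. Akr1b3 encodes aldose reductase, which makes sorbitol from glucose. Nfat5, also called TonEBP, is the transcription factor that turns these genes on when salt rises, through a DNA motif named TonE. Slc14a2 encodes the UT-A urea transporters of the collecting duct and thin limb.

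On build GRCm38, Slc5a3 (ENSMUSG00000089774.2) lies at chr16:92058322-92087473 on the plus strand. Its first exon of 159 bases, 92058322 to 92058480, sits wholly inside the first exon of Mrps6, which encodes a protein of the small mitochondrial ribosome subunit and runs from 92058270 to 92112227 on the same strand. Its second exon, 92076720 to 92087473, lies in an intron of Mrps6. The shared bases are 1.46% of the 10913 exonic bases of Slc5a3 and 10.4% of those of Mrps6, and a further overlapping gene model, Gm49711, had 0 to 11 counts per library. The other genes are Slc6a12 (ENSMUSG00000030109.15, chr6:121343076-121365775, plus strand), Slc6a6 (ENSMUSG00000030096.8, chr6:91684053-91759066, plus strand) and Akr1b3 (ENSMUSG00000001642.18, chr6:34302434-34317478, minus strand). Nfat5 (ENSMUSG00000003847.16) lies at chr8:107293470-107379517 on the plus strand and Slc14a2 (ENSMUSG00000024552.16) on the minus strand of its own chromosome.

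Upstream DNA is shown for the 2 genes that moved with genotype, Slc5a3 and Slc6a12. The first stretch is the 198 bases before the first base of Mrps6, chr16:92058072-92058269, which lie upstream of both Slc5a3 and Mrps6. Capitals mark each of its 24 CpG pairs, and its GC content is 75.8%. The second stretch is 100 bases upstream of, and ending short of, a RefSeq start of Slc6a12 at 121342574, chr6:121342449-121342548, with the TonE match in capitals. Both are plus-strand RefSeq sequence of GRCm38.p6.
Slc5a3 and Mrps6 shared upstream: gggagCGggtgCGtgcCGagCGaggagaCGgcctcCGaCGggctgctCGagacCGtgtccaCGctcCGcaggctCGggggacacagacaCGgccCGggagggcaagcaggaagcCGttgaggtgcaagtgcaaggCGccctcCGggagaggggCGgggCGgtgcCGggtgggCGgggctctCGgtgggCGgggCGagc
Slc6a12 upstream: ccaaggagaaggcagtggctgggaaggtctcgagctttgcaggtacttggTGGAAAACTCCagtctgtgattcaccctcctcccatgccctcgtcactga
The windows searched, on both strands, ran from 250 bases before to 50 bases after each start. The core TGGAAA was found in 21.4% of the 32851 such windows in RefSeq, and the full TonE consensus, which contains that core, in 4.96%. Entries were present for 3 of the 6 genes, Slc5a3, Slc6a12 and Nfat5. Of these, the first of the 5 Slc6a12 windows held a match, to both core and consensus, beginning 75 bases before the start at 121342574. The window of Slc5a3 and that of Nfat5 held neither. The shares over RefSeq are per window, and with 5 windows Slc6a12 had more room for a match. A match or its lack in these windows describes the letters only.

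A gene was called where its edgeR p-value, adjusted over all genes tested, was under 0.05. Library totals ran from 42157790 to 57814587 gene counts. Xist and Ddx3y matched the labelled sex in all 18 libraries. The 4 interferon receptor genes on the additional copy were all called higher in Dp16, by 0.58 to 0.80 on the log2 scale. Of these, 3 (Ifnar2, Ifngr2 and Il10rb) were called lower in Dp16 2xIFNRs than in Dp16, and they made up the whole list of 3 genes called in that comparison. In Dp16 2xIFNRs against wild-type the 4 receptor genes had log2 folds of -0.01 to 0.20, and Ifnar2 was still called higher. Markers of the collecting duct and of the thin limb were present in every group. The 9 markers of collecting duct principal cells summed to 339 to 494 RPKM (reads per kilobase of gene and per unit of library size) over the 18 animals and the 9 thin limb markers to 163 to 337 RPKM, and no marker of these lists was at 0 throughout. In whole kidney, a change in the number of cells of a type cannot be told apart from a change in RNA per cell.

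Levels, compared between genes as RPKM, were highest for the taurine transporter gene and lowest for the betaine transporter gene. Slc6a6 was the most abundant of the 6, at 73.8 ± 12.9 RPKM (SD, n = 18). Akr1b3 stood at 66.1 ± 9.92 RPKM, and Slc6a6 exceeded it in 14 of 18 animals. Slc5a3 followed at 20.1 ± 5.95 RPKM, below Akr1b3 in all 18. Slc14a2, at 18.2 ± 4.01 RPKM, was not set apart from Slc5a3, which was the higher in 10 of 18 animals. Nfat5 stood at 3.83 ± 0.727 RPKM and Slc6a12 at 0.987 ± 0.374 RPKM, each below the gene before it in all 18. The low level of Slc6a12 rested on 61 to 223 counts per library, while Slc5a3 had 5827 to 20034.

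**Figure D1:**
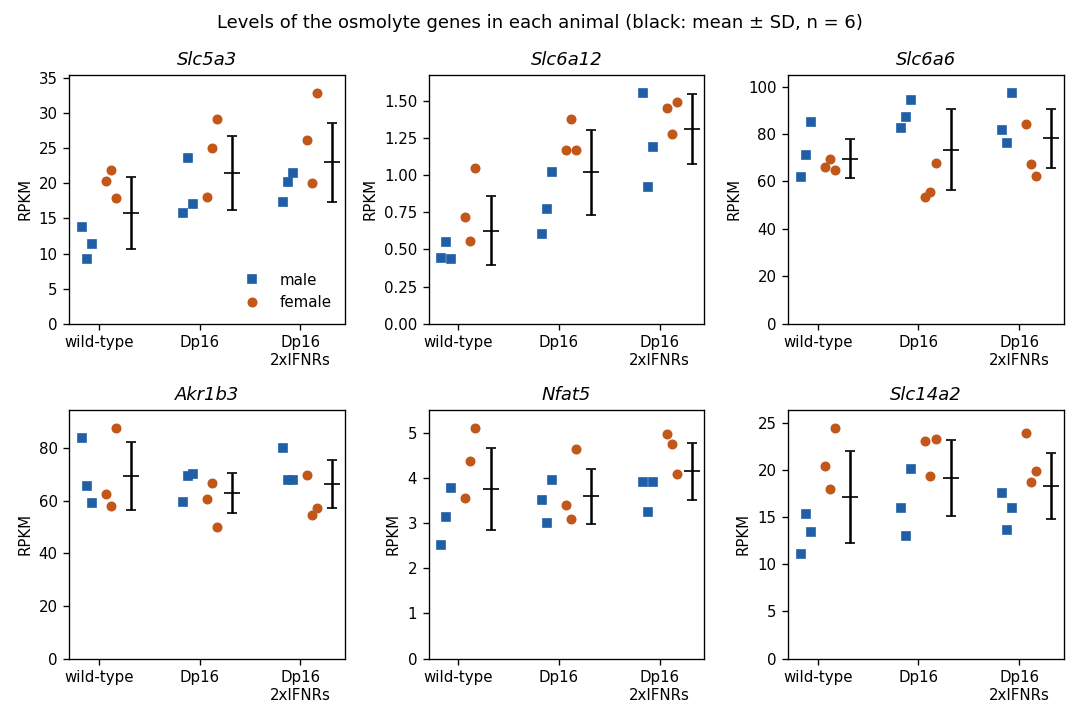
RPKM of each of the 6 osmolyte genes (vertical axes from 0) in every animal, by genotype, with males as blue squares, females as orange circles and the mean ± SD of each group of 6 in black. Slc6a12 climbs from a wild-type mean of 0.627 RPKM to 1.31 in Dp16 2xIFNRs. With the sexes pooled, all 6 genes overlap between the genotypes.

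Slc5a3, the myo-inositol carrier gene with the additional copy, was higher in both mutant groups, and the difference passed the test in Dp16 2xIFNRs. Wild-type kidneys held 9.24, 11.3 and 13.8 RPKM in males and 18.0, 20.3 and 21.9 in females. Dp16 kidneys held 15.8, 17.1 and 23.7 RPKM in males and 18.1, 25.0 and 29.2 in females. Dp16 2xIFNRs kidneys held 17.4, 20.1 and 21.4 RPKM in males and 20.1, 26.1 and 32.8 in females. Every mutant male lay above every wild-type male, whereas among females 2 of 3 animals of each mutant group lay above all wild-type females. The groups overlapped among females, where 1 animal of each mutant group lay within the wild-type range, and with the sexes pooled. Group means were 15.8 ± 5.09 RPKM in wild-type, 21.5 ± 5.28 in Dp16 and 23.0 ± 5.62 in Dp16 2xIFNRs (SD, n = 6 each).

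The log2 fold of Slc5a3 in Dp16 over wild-type was 0.45 ± 0.14 (SE; 95% interval 0.16 to 0.75; edgeR quasi-likelihood test with Benjamini-Hochberg adjustment over all genes tested, adjusted p = 0.0769). It did not pass the threshold of 0.05, but passed it in 4 of 29 other fits, among them DESeq2 (adjusted p = 0.0298) and the fit without Dp16 replicate 2, the lowest Dp16 female (edgeR adjusted p = 0.0283). Another of the 4 is the fit with the counts of Mrps6 added, which does not test Slc5a3 alone. Over those 29 fits the log2 fold stayed between 0.34 and 0.54. In Dp16 2xIFNRs Slc5a3 rose by 0.54 ± 0.14 (95% interval 0.25 to 0.84, edgeR adjusted p = 0.0312). This call was lost in 10 of 29 other fits, which gave log2 folds of 0.45 to 0.56 and adjusted p up to 0.244, the latter without the sex covariate. It was lost without any 1 of wild-type replicates 1, 3, 4 and 6 or Dp16 2xIFNRs replicates 2, 3, 5 and 6, with adjusted p up to 0.0846. A gene read from 3 copies in place of 2 would rise by 0.585 if each copy gave equal RNA, and both intervals of Slc5a3 contain that value.

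Mrps6, which shares its first exon and upstream DNA with Slc5a3, rose in both mutant groups. Its levels were 42.7, 52.3 and 68.8 RPKM in wild-type males and 60.3, 66.5 and 81.7 in wild-type females. In Dp16 they were 76.3, 84.4 and 89.0 RPKM in males and 93.8, 114 and 148 in females. In Dp16 2xIFNRs they were 69.4, 78.1 and 84.6 RPKM in males and 89.7, 95.1 and 114 in females. Within each sex every mutant animal exceeded every wild-type animal. The log2 fold was 0.66 ± 0.12 in Dp16 (edgeR adjusted p = 0.0027) and 0.47 ± 0.12 in Dp16 2xIFNRs (adjusted p = 0.0232). With the counts of Slc5a3 and Mrps6 added into 1 gene, the log2 fold in Dp16 was 0.50 and passed the test (edgeR adjusted p = 0.0178). After the mean of each genotype and sex was removed, log2 CPM (counts scaled to library size) of the 2 genes had Pearson r = 0.29 and Spearman rho = 0.31 over 18 animals, and Mrps6 ranked 2522 of 13679 genes by likeness to Slc5a3.

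Around Slc5a3 most neighbours on the additional copy rose as well. Of 12 listed neighbours 11 were tested, of which 7 were called higher and 0 lower in Dp16, with a median log2 fold of 0.60, and 9 were called higher and 0 lower in Dp16 2xIFNRs, with a median of 0.52. Over all genes tested, 3.17% were called higher in each of these comparisons, 1.06% lower in Dp16 and 1.61% lower in Dp16 2xIFNRs, and the median log2 folds were -0.01 and 0.01. Kcne1, a potassium channel subunit gene, rose by 0.73 ± 0.13 in Dp16 (edgeR adjusted p = 0.00236) and by 0.74 ± 0.13 in Dp16 2xIFNRs. Son, a splicing factor gene at -410.8 kb from Slc5a3, was at 0.27 ± 0.08 in Dp16 (edgeR adjusted p = 0.0585) and rose by 0.40 ± 0.08 in Dp16 2xIFNRs. Over the whole additional copy, chr16:75540514-97962622, 115 genes were tested, with median log2 folds of 0.52 in both groups. Of these, 71 were called higher and 0 lower in each comparison with wild-type, so calls were common along the whole copy and not only near Slc5a3. Slc5a3 ranked 80 of 115 by its fold in Dp16 and 54 in Dp16 2xIFNRs, and 6 of 115 by its count level. Its SE of 0.14 exceeded the median SE of these genes, 0.11.

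**Figure D2:**
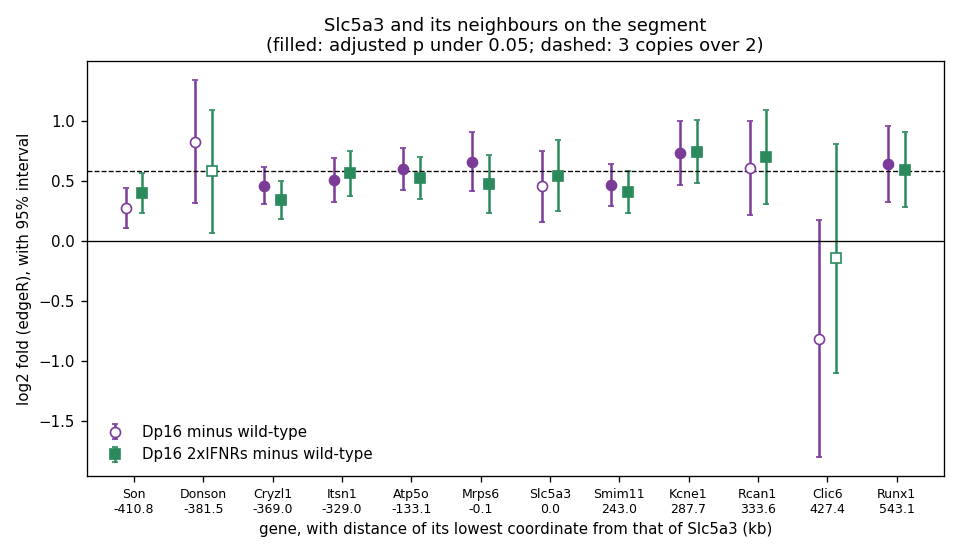
Log2 fold against wild-type (vertical axis, edgeR, bars are 95% intervals) of Slc5a3 and its 11 tested neighbours in order along chromosome 16, with the distance of each from Slc5a3 in kb under its name. The dashed line marks 3 copies over 2, at 0.585, and 10 of the 11 neighbours lie above 0 in both groups, the exception being Clic6.

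Slc6a12, the betaine transporter gene, lies on chromosome 6, outside the additional copy, and rose in both mutant groups. Wild-type kidneys held 0.436, 0.445 and 0.550 RPKM in males and 0.558, 0.721 and 1.05 in females. Dp16 kidneys held 0.605, 0.775 and 1.02 RPKM in males and 1.17, 1.17 and 1.38 in females. Dp16 2xIFNRs kidneys held 0.923, 1.19 and 1.55 RPKM in males and 1.27, 1.45 and 1.49 in females. Within each sex no mutant animal fell as low as the highest wild-type animal. With the sexes pooled, 3 of 6 Dp16 and 5 of 6 Dp16 2xIFNRs animals lay above the highest wild-type animal, a female. Group means were 0.627 ± 0.231 RPKM in wild-type, 1.02 ± 0.285 in Dp16 and 1.31 ± 0.236 in Dp16 2xIFNRs (SD, n = 6 each).

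In Dp16 Slc6a12 rose by 0.67 ± 0.18 on the log2 scale (95% interval 0.31 to 1.04, edgeR adjusted p = 0.0333). It was the only member called, 1 of 6, where 4.23% of all genes were called in either direction. In Dp16 2xIFNRs it rose by 1.07 ± 0.17 (95% interval 0.70 to 1.43, edgeR adjusted p = 0.00139). Together with Slc5a3 this made 2 of 6 members called, both higher, against 4.79% of all genes in either direction. Slc5a3 lies on the additional copy, where 71 of 115 tested genes were called higher in this comparison. The members were chosen with earlier results of these data known, so these shares are no test of the members as a set. The call in Dp16 2xIFNRs held in 28 of 28 other fits, with log2 folds of 0.95 to 1.21 and adjusted p of 1.07e-06 to 0.0154. The call in Dp16 was lost in 8 of 28, which gave log2 folds of 0.60 to 0.67 and adjusted p up to 0.141. The 8 were the fits without the sex covariate, with the 2 groups alone, and without any 1 of wild-type replicates 1, 2, 4 and 5 or Dp16 replicates 3 and 6. Both comparisons share the wild-type animals.

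Slc6a6, Akr1b3, Nfat5 and Slc14a2 did not pass the test in either comparison with wild-type. Slc6a6, the taurine transporter gene, ran from 61.7 to 84.9 RPKM in wild-type (median 67.7), from 53.3 to 94.3 in Dp16 (median 75.2) and from 62.3 to 97.2 in Dp16 2xIFNRs (median 79.1). Its log2 folds were 0.02 ± 0.10 in Dp16 (95% interval -0.19 to 0.23, edgeR adjusted p = 0.959) and 0.12 ± 0.10 in Dp16 2xIFNRs (-0.09 to 0.33, adjusted p = 0.562). The Dp16 animals spanned more than the wild-type range on both sides, with all 3 females at or below 67.6 RPKM and all 3 males at or above 82.7.

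Akr1b3, the aldose reductase gene, ran from 58.0 to 87.6 RPKM in wild-type (median 64.0), 50.1 to 70.3 in Dp16 (median 63.7) and 54.6 to 80.1 in Dp16 2xIFNRs (median 67.8). Its log2 folds were -0.18 ± 0.11 (95% interval -0.41 to 0.05, edgeR adjusted p = 0.451) and -0.11 ± 0.11 (-0.34 to 0.12, adjusted p = 0.65). The groups overlapped, with 1 wild-type male at 83.7 RPKM and 1 wild-type female at 87.6 above all others. Akr1b3 has close relatives in Akr1b7, Akr1b8 and Akr1b10, between which reads could be shared. With the 4 genes added together the log2 folds were -0.10 in Dp16 and -0.08 in Dp16 2xIFNRs, again without a call. Its antisense gene model Gm14546 had at most 3 counts in a library.

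Nfat5, the tonicity factor, ran from 2.52 to 5.11 RPKM in wild-type (median 3.67), 3.00 to 4.63 in Dp16 (median 3.45) and 3.25 to 4.97 in Dp16 2xIFNRs (median 4.00). Its log2 folds were -0.08 ± 0.12 (95% interval -0.32 to 0.17, edgeR adjusted p = 0.818) and 0.12 ± 0.12 (-0.13 to 0.36, adjusted p = 0.65). All 3 groups covered much the same range. Slc14a2, the urea transporter gene, ran from 11.1 to 24.4 RPKM in wild-type (median 16.6), 12.99 to 23.3 in Dp16 (median 19.7) and 13.6 to 23.9 in Dp16 2xIFNRs (median 18.2). It lies on chromosome 18, away from the additional copy. Its log2 folds were 0.15 ± 0.11 (95% interval -0.08 to 0.37, edgeR adjusted p = 0.551) and 0.08 ± 0.11 (-0.15 to 0.30, adjusted p = 0.754). The intervals of these 4 genes leave room for differences of up to 0.41 on the log2 scale.

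**Figure D3:**
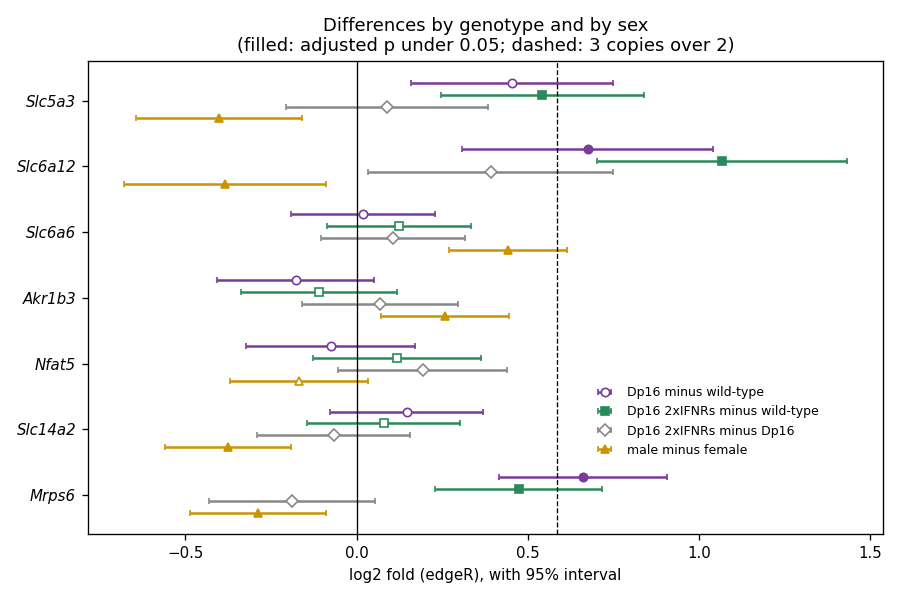
Log2 folds (horizontal axis, edgeR, bars are 95% intervals) of the 6 osmolyte genes and Mrps6 in the 3 comparisons of genotypes and between the sexes. Filled symbols passed an adjusted p of 0.05, and among the 6 genes the comparisons with wild-type have filled symbols only at Slc5a3 and Slc6a12.

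Between the mutant groups, which differ in interferon receptor dosage, none of the 6 genes was called, and 0.0171% of all genes were. At an unadjusted p under 0.05 the comparison held 825 of the 17575 genes tested, among them Slc6a12. That is no more than this threshold would pass if no gene differed. Slc6a12 was 0.39 ± 0.17 higher in Dp16 2xIFNRs than in Dp16 on the log2 scale (95% interval 0.03 to 0.75, edgeR adjusted p = 0.85). The 2 groups overlapped, with 3 of 6 Dp16 2xIFNRs animals above the highest Dp16 animal. Slc5a3 differed by 0.09 ± 0.14 (95% interval -0.21 to 0.38, edgeR adjusted p = 0.915), and 1 of 6 Dp16 2xIFNRs animals lay above all Dp16 animals. For the other 4 the log2 differences were 0.11 (Slc6a6), 0.07 (Akr1b3), 0.19 (Nfat5) and -0.07 (Slc14a2), with intervals that all contained 0.

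More of these genes were called between the sexes than between genotypes. In males against females 5 of 6 were called, where 38.8% of all genes were, 19% higher in males and 19.7% lower. Slc14a2 ran from 11.1 to 20.1 RPKM in the 9 males (median 15.3) and from 18.0 to 24.4 in the 9 females (median 20.4). The sexes met at 1 animal, a Dp16 male at 20.1 RPKM, and the other 8 males lay below every female. Its log2 fold, male over female, was -0.38 ± 0.09 (95% interval -0.56 to -0.19, edgeR adjusted p = 0.00193).

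Slc5a3 ran from 9.24 to 23.7 RPKM in males (median 17.1) and from 18.0 to 32.8 in females (median 21.9), and 6 of 9 males lay below every female. Its log2 fold, male over female, was -0.40 ± 0.12 (95% interval -0.64 to -0.16, edgeR adjusted p = 0.00907). Slc6a12 was also lower in males, at -0.38 ± 0.14 (edgeR adjusted p = 0.0373), but males and females overlapped over most of their range. This call was lost in 9 of 26 other fits, with adjusted p up to 0.0845. Nfat5 was at -0.17 ± 0.10 (edgeR adjusted p = 0.183), not called, with all 9 males below the female median. It was called with limma on log2 RPKM, at -0.28 (limma adjusted p = 0.0367).

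Slc6a6 and Akr1b3 moved the other way and were higher in males. Slc6a6 ran from 61.7 to 97.2 RPKM in males (median 82.7) and from 53.3 to 84.1 in females (median 66.0), and 4 of 9 males lay above every female. Its log2 fold was 0.44 ± 0.08 (95% interval 0.27 to 0.61, edgeR adjusted p = 0.000244). Akr1b3 was at 0.26 ± 0.09 (edgeR adjusted p = 0.0267), and no male lay above the highest female. Its call did not hold in 8 of 26 other fits, where adjusted p reached 0.216. The sex calls of Slc5a3, Slc6a6 and Slc14a2 held in 26 of 26 other fits. The median log2 fold of all genes was -0.03 here and -0.13 on the RPKM scale, which is not adjusted for library composition. On that scale Slc6a6 and Akr1b3 stayed above that median and Slc5a3, Slc6a12 and Slc14a2 below it.

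Markers of cell types were also read between the sexes. Of 9 collecting duct markers 5 were called lower in males and 0 higher, of 9 thin limb markers 5 and 0, and of 8 thick ascending limb markers 7 and 0, with median log2 folds of -0.31, -0.41 and -0.29, where 19% of all genes were called higher and 19.7% lower. Of 10 proximal tubule markers 4 were called higher and 4 lower, of 5 podocyte markers 5 were called lower, and of 6 endothelial markers 5. The part of these cell types in the sex differences of Slc5a3, Slc6a12 and Slc14a2 was not tested. Slc6a6 and Akr1b3, higher in males, went against the direction of the collecting duct, thin limb and thick ascending limb lists.

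Whether genotype acted unequally in the 2 sexes was tested by a product term. None of the 6 genes was called for Dp16 or for Dp16 2xIFNRs against wild-type, where 0.0171% and 0.00569% of all genes were, nor between the mutant groups, where 0% were. The lowest adjusted p among the members was that of Slc6a6 in Dp16 (interaction 0.44 ± 0.18, edgeR adjusted p = 0.631). Its log2 fold was 0.23 ± 0.13 in males and -0.20 ± 0.13 in females. Slc5a3 had log2 folds of 0.68 ± 0.20 in Dp16 males and 0.24 ± 0.19 in Dp16 females (interaction adjusted p = 0.66), and of 0.73 ± 0.20 and 0.36 ± 0.19 in Dp16 2xIFNRs. Slc6a12 had log2 folds of 0.70 ± 0.25 and 0.66 ± 0.24 in Dp16 males and females, and of 1.30 ± 0.25 and 0.83 ± 0.24 in Dp16 2xIFNRs. The interactions carry SEs of 0.18 to 0.34, so differences between the sexes of that order were not resolved.

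Variation from animal to animal, with the mean of each genotype and sex taken out, was compared between the genes. Over the 15 pairs none passed an adjusted p of 0.05 by exact permutation within genotype and sex (two-sided, 46656 ways), and 4 had an unadjusted p under 0.05. Slc6a6 and Nfat5 had Pearson r = 0.69 (exact permutation p = 0.00874, adjusted p = 0.1002; 0.70 without the 2 animals farthest from the median of Slc6a6) and Spearman rho = 0.67 (exact permutation p = 0.0108, adjusted p = 0.0962). Nfat5 and Slc14a2 had r = 0.65 (exact permutation p = 0.0199, adjusted p = 0.1002; 0.50 without 2 animals) and rho = 0.65 (exact permutation p = 0.0192). Slc6a12 and Akr1b3 had r = 0.63 (exact permutation p = 0.02, adjusted p = 0.1002; 0.76 without 2 animals) and rho = 0.67 (exact permutation p = 0.0132). Without wild-type replicate 1 this last pair passed (r = 0.76, exact permutation adjusted p = 0.0309).

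Slc6a12 and Slc14a2 had r = 0.62 (exact permutation p = 0.037, adjusted p = 0.139; 0.62 without 2 animals) and rho = 0.56 (exact permutation p = 0.0664). With the genotype means alone removed, so that sex stayed in, this pair passed (r = 0.77, permutation adjusted p = 0.0133). Slc5a3 had r between -0.55 and 0.08 with the other 5 genes, the only member with no r above 0.1. Its lowest value was with Slc14a2, r = -0.55 (exact permutation p = 0.0613, adjusted p = 0.184; -0.45 without 2 animals) and rho = -0.56 (exact permutation p = 0.053). The 2 genes that rose with genotype, Slc5a3 and Slc6a12, had r = -0.21 (exact permutation p = 0.433, adjusted p = 0.72; -0.13 without 2 animals) and rho = -0.12 (exact permutation p = 0.667).

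**Figure D4:**
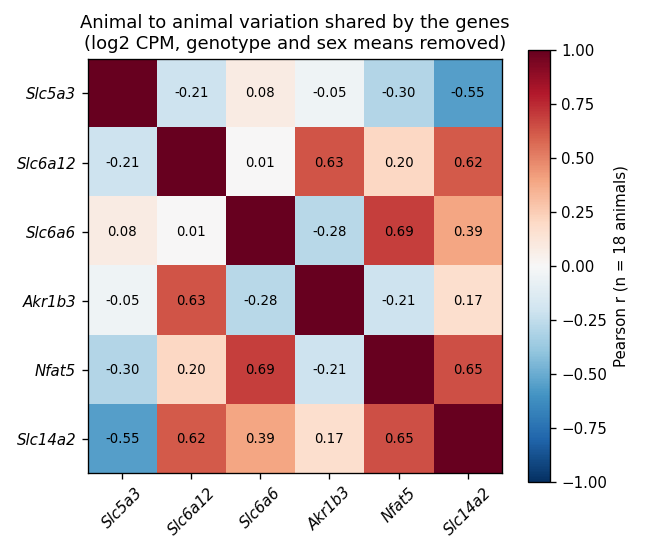
Pearson r (colour and number) between each pair of the 6 osmolyte genes over 18 animals, from log2 CPM with genotype and sex means removed. Slc6a6 with Nfat5 is highest at 0.69 and Slc5a3 with Slc14a2 lowest at -0.55.

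Members were set against marker lists in the same way, each list taken as the mean log2 CPM of its genes. None of 30 correlations of a member with a tubule or macrophage list passed, the lowest adjusted p being 0.387 by exact permutation. Slc14a2 had r = 0.66 with the thin limb list (exact permutation p = 0.017) and 0.63 with the collecting duct list (exact permutation p = 0.0258). Slc6a12 had r = 0.57 (exact permutation p = 0.0822) and Slc5a3 r = -0.51 (exact permutation p = 0.0684) with the collecting duct list.

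Among 13679 genes ranked by Pearson r over the 18 animals, with the same means removed, each member had closer companions than the other osmolyte genes. Those of Slc5a3 were Gm49291 (0.93), Ttc9c (0.92) and Cdc5l (0.88), and those of Slc6a12 were Ccl27a (0.81), Alkbh2 (0.79) and Gm12276 (0.77). Slc6a6 was most like Smarcal1 (0.90), Limch1 (0.88) and Spata7 (0.88), and Akr1b3 most like Taf13 (0.87), 2310009A05Rik (0.86) and Cryab (0.85), a small heat shock protein gene of the inner medulla. Nfat5 was most like Phf21a (0.97), Svil (0.95) and Mapkbp1 (0.95), and Slc14a2 most like Wsb1 (0.94), Lrfn3 (0.92) and Ctdspl (0.90). These ranks describe the libraries, which share depth and composition, and no test was made of them.

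Around the 6 genes, pathway lists of the same osmolytes held 30 other tested genes, of which 3 were called higher and 2 lower in Dp16 and 2 higher and 3 lower in Dp16 2xIFNRs. That is 16.7% in each comparison, where 4.23% and 4.79% of all genes were called. The lists were chosen with earlier results of these data known, so these shares are no test of the pathways. Of 7 tested genes that make, move or break down myo-inositol, the cargo of Slc5a3, 2 were called higher and 0 lower in Dp16 (median log2 fold 0.08). In Dp16 2xIFNRs 1 was called higher and 0 lower (median 0.09). Isyna1, the synthase that makes myo-inositol, stood at 24.5 ± 3.03 RPKM in wild-type, 30.7 ± 4.94 in Dp16 and 31.1 ± 4.25 in Dp16 2xIFNRs (SD, n = 6 each), and rose by 0.29 ± 0.07 (edgeR adjusted p = 0.0179) and 0.31 ± 0.07 (adjusted p = 0.011). Miox, the oxygenase that starts its breakdown in the proximal tubule, rose by 0.27 ± 0.07 in Dp16 (edgeR adjusted p = 0.0368) and was at 0.24 ± 0.07 in Dp16 2xIFNRs (adjusted p = 0.0531). Slc2a13, a proton-coupled myo-inositol carrier gene, was at -0.32 and -0.50 (edgeR adjusted p = 0.259 and 0.056).

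In the list of the polyol pathway and the relatives of aldose reductase, 1 of 6 tested genes was called lower and 0 higher in each comparison with wild-type (medians -0.03 and -0.10). That gene was Sord, sorbitol dehydrogenase, which turns sorbitol into fructose. It fell from 815 ± 154 RPKM in wild-type to 659 ± 77.5 in Dp16 and 676 ± 61.8 in Dp16 2xIFNRs, at log2 folds of -0.33 ± 0.07 (edgeR adjusted p = 0.0123) and -0.30 ± 0.07 (adjusted p = 0.0218). Of 5 tested genes of taurine synthesis and transport, beside Slc6a6, 0 were called in either comparison (medians -0.10 and -0.04). The lowest adjusted p was that of Csad, a decarboxylase of taurine synthesis, in Dp16 2xIFNRs, at -0.25 ± 0.08 (edgeR adjusted p = 0.0794).

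Of 4 genes of betaine synthesis and use, beside Slc6a12, 1 was called lower in Dp16 and 2 in Dp16 2xIFNRs, with 0 higher (medians -0.22 and -0.25). Bhmt, which spends betaine to remethylate homocysteine, fell by 1.73 ± 0.21 and by 1.98 ± 0.21 on the log2 scale (edgeR adjusted p = 7.53e-05 and 1.66e-05). Its relative Bhmt2 was at -0.28 ± 0.09 in Dp16 (edgeR adjusted p = 0.085) and at -0.36 ± 0.09 in Dp16 2xIFNRs (adjusted p = 0.0267). Bhmt was thus lower in the groups in which Slc6a12, the importer of the same solute, was higher. Chdh, which makes the precursor of betaine from choline, was at -0.15 and -0.05 and was not called.

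Of 4 genes of glycerophosphocholine turnover 0 were called (medians -0.18 and -0.16). Of 4 tested genes of urea handling, beside Slc14a2, 1 was called higher in each comparison (medians 0.29 and 0.12). It was Aqp7, a water and glycerol channel of the proximal tubule, at 0.29 ± 0.08 (edgeR adjusted p = 0.0378) and 0.28 ± 0.08 (adjusted p = 0.0477). Slc14a1, the second urea transporter gene of the kidney, was at 0.40 ± 0.12 (edgeR adjusted p = 0.0795) and 0.34 ± 0.13 (adjusted p = 0.132).

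**Figure D5:**
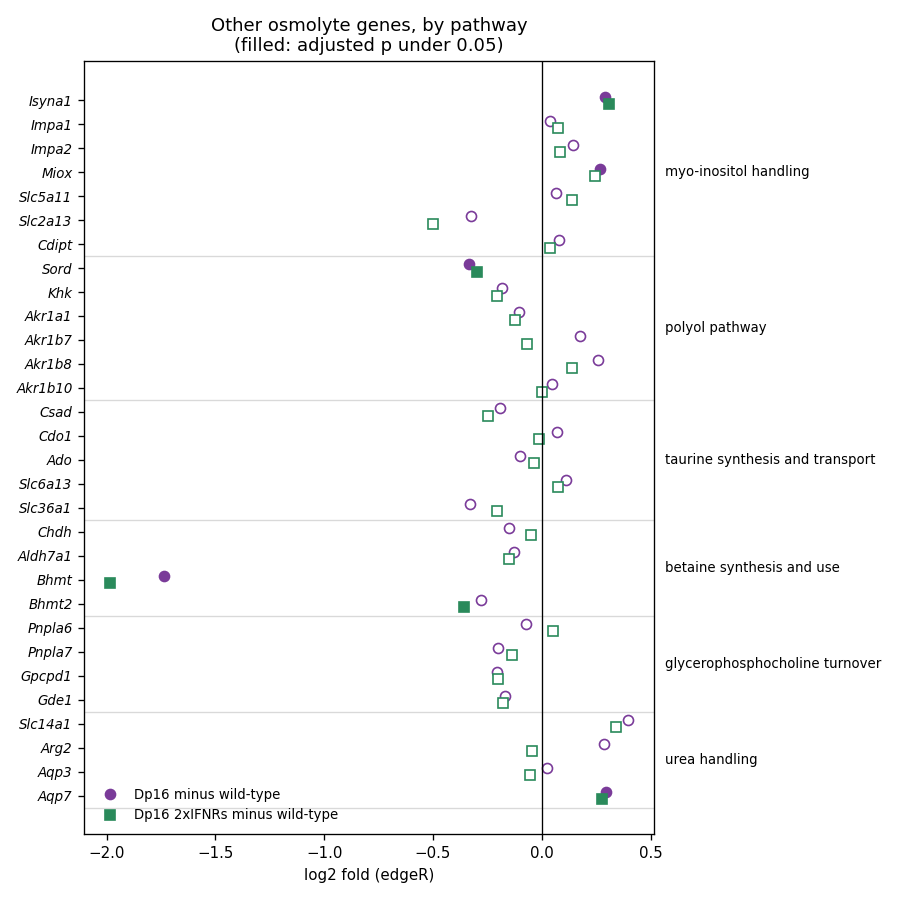
Log2 folds against wild-type (horizontal axis, edgeR) of the tested genes of 6 osmolyte pathways beside the members, in Dp16 (purple circles) and Dp16 2xIFNRs (green squares), filled where the adjusted p was under 0.05. Most lie within 0.5 of 0, and Bhmt stands out at -1.73 and -1.98.

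Of 32 tested genes known to respond to tonicity, to act on Nfat5 or to belong to its family, 1 was called in each comparison with wild-type, 3.13% against 4.23% and 4.79% of all genes. Of 13 tonicity-induced genes 1 was called higher and 0 lower in each comparison (medians 0.09 and 0.14). That gene was Cryab, at 0.43 ± 0.09 in Dp16 (edgeR adjusted p = 0.00647) and 0.30 ± 0.09 in Dp16 2xIFNRs (adjusted p = 0.0479). Aqp2, the vasopressin-regulated water channel gene, was at 0.26 ± 0.08 and 0.16 ± 0.08 (edgeR adjusted p = 0.0823 and 0.321), and S100a4 at 0.61 ± 0.18 and 0.40 ± 0.18 (adjusted p = 0.0652 and 0.25). Of 15 regulators and cofactors of Nfat5 0 were called (medians -0.07 and 0.01), and of the 4 other Nfat family genes 0 (medians 0.04 and 0.27). Between the mutant groups 0 genes of these lists were called.

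The pathway lists were also read between the sexes. Of 5 tested genes of taurine synthesis and transport 4 were called higher in males and 0 lower (median log2 fold 0.30), the direction of Slc6a6, with Csad at 0.71 ± 0.07 (edgeR adjusted p = 3.1e-08). Of 7 genes of myo-inositol handling 1 was called higher and 5 lower in males (median -0.25), the direction of Slc5a3, with Miox at -0.25 ± 0.06 (edgeR adjusted p = 0.00198) and Impa1, which releases myo-inositol from its phosphate, at 0.33 ± 0.07 as the one called higher. Of the 6 genes of the polyol pathway and the relatives of aldose reductase, 3 were called higher and 1 lower (median 0.15), of which Sord, at 0.41 ± 0.06 (edgeR adjusted p = 1.51e-05), is the one in the polyol pathway and Akr1a1, Akr1b7 and Akr1b10 are relatives. Bhmt was at -4.23 ± 0.19 (edgeR adjusted p = 5.13e-13) and Chdh at 0.59 ± 0.07 in the betaine list, of which 2 genes were called higher and 1 lower (median 0.34). The median of the betaine list was thus opposite in sign to Slc6a12, which was lower in males, while Bhmt had the same sign as Slc6a12. Of 4 genes of glycerophosphocholine turnover 1 was called higher and 1 lower (median 0.12). In urea handling 0 were called higher and 2 lower (median -0.28), with Arg2, a mitochondrial arginase gene, at -2.73 ± 0.13 (edgeR adjusted p = 1.2e-12). Of 13 tonicity-induced genes 3 were called higher and 5 lower (median -0.06), of 15 regulators of Nfat5 1 and 2 (median 0.08), and of the 4 Nfat family genes 0 and 1 (median -0.12). These counts stand against 19% of all genes called higher and 19.7% lower.

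Marker lists are given beside the genotype differences of Slc5a3 and Slc6a12, where 4.23% of all genes were called in Dp16 and 4.79% in Dp16 2xIFNRs. Of 9 collecting duct markers 0 were called in either comparison, and their summed level had medians of 412 RPKM in wild-type, 447 in Dp16 and 434 in Dp16 2xIFNRs. Of 8 thick ascending limb markers 0 were called in either. Among the 9 thin limb markers Cryab was called higher in both comparisons, and the summed level of the list ran from 163 to 277 RPKM in wild-type, 247 to 337 in Dp16 and 235 to 300 in Dp16 2xIFNRs. Cryab made up 64.4% of that sum. Of 6 markers of the medullary interstitium 0 were called in Dp16 and 2, Ptgs1 and Tnc, were called higher in Dp16 2xIFNRs. Of 8 macrophage markers 7 were called higher in Dp16 and 6 in Dp16 2xIFNRs, with summed levels of 287 to 459 RPKM in wild-type, 481 to 710 in Dp16 and 459 to 654 in Dp16 2xIFNRs, 72.9% of it from Cd74. Of 6 lymphocyte markers 4 were called higher in Dp16 (median log2 fold 1.11) and 3 in Dp16 2xIFNRs (median 0.75), with summed levels of 99.5 to 190.0 RPKM in wild-type, 272 to 872 in Dp16 and 156 to 740 in Dp16 2xIFNRs, 97.7% of it from Igkc. Of 10 proximal tubule markers Slc22a7 and Slc22a8 were called lower in both comparisons and 0 higher. Of 5 distal convoluted tubule markers 1 was called higher in Dp16 and 2 in Dp16 2xIFNRs, and the same held for 5 podocyte markers. Of 5 fat markers Adipoq was called higher in Dp16 and Ucp1 lower in Dp16 2xIFNRs. Of 2 tested adrenal cortex markers Star was called lower in Dp16 2xIFNRs. In the intercalated cell, endothelium and urothelium lists 0 were called in either comparison. The part of these cell types in the rise of Slc6a12 and in the levels of Slc5a3 was not tested.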

How the data were processed

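Raw gene counts and RPKM were deposited for 18 libraries. Per the submitters' processing notes, HISAT2 2.1.0, SAMtools 1.5 and HTSeq 0.6.1 were used with build GRCm38. How counting treated strand and overlapping genes is not given in the sources used here, so reads in the exon that Slc5a3 and Mrps6 share may be split or dropped. The authors' RPKM equalled counts divided by gene length and library total, rescaled, within 0.1% in 14767 of 14767 genes checked.

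Counts were tested with the edgeR 4.0.16 quasi-likelihood test (R 4.3.3), which modelled genotype and sex jointly over the 18 libraries, with TMM normalization and filterByExpr (minimum count 10, minimum total 15; 37810 genes removed). P-values are two-sided, with Benjamini-Hochberg adjustment over 17575 genes. SEs are approximate. Correlations used log2 CPM (prior count 2). Positions came from GENCODE M21. The edgeR step of Dp16 against wild-type was tried on simulated counts and the permutation step on simulated normal values. The members, lists and comparisons were chosen with earlier results of these data known, and marker correlations and the receptor check were added after the data were seen. Named genes are all members, listed neighbours, the called genes of each list or up to 3 of smallest p, and 3 genes most like each member. Alternatives were RLE factors, other filters, no sex term, age, a replicate block, 2 groups alone, DESeq2 1.42.0, limma 3.58.1 on RPKM (pseudocount 0.1) or with the description number as random block, summed related genes, and each library left out. The single-gene result of a thin limb marker is not reported here.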

Additional observations from a re-analysis of the deposited data

How the results depend on the processing

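No member changed sign in a called comparison under any alternative run. The count of genes called in Dp16 against wild-type, 744, became 190 without the sex covariate, 453 in a fit of the 2 groups alone and 1235 with DESeq2. With 1 library left out it ran from 429 to 815, the lowest values coming without Dp16 replicate 3 (429) or replicate 1 (462) and, at 478, wild-type replicate 4. In Dp16 2xIFNRs against wild-type 841 became 234 without the sex covariate and 1287 with DESeq2, and ran from 526 (without wild-type replicate 1) to 920 with 1 library left out, with 552 without Dp16 2xIFNRs replicate 1. The count between the mutant groups ran from 3 to 4, that between the sexes from 6301 to 6740, and that of member interactions stayed at 0. The number of member pairs correlated at an adjusted p under 0.05 was 1 with the genotype means alone removed and 0 to 1 with 1 library left out. The cause of these shifts was not tested.

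Sample numbers are shared by the groups, and the labels do not state whether they pair the animals. Deviations of same-numbered animals from their group means had r from -0.42 to 0.53. This r was over 0.1 in 10 of 18 pairs, which are the 10 pairs of the same sex. With sex removed, r ran from -0.06 to 0.22 and was over 0.1 in 3 of 18. With the number as a replicate block, 910 genes were called in Dp16 and 945 in Dp16 2xIFNRs against wild-type, 3 between the mutant groups and 5508 between the sexes. Of the member calls, that of Akr1b3 between the sexes was lost (log2 fold 0.16, edgeR adjusted p = 0.216). With the description number as a random block (limma, consensus correlation 0.0778) 828 genes were called in Dp16, 992 in Dp16 2xIFNRs, 3 between the mutant groups and 6611 between the sexes, and the same members were called as without it. Slc6a12, at 61 to 223 counts a library, is the member with the least depth.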
